A study of Mus musculus with 8 samples.

Results

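Alveolar type 1 cells are represented here by 10 genes, chosen by name from the known markers of this cell: Ager, Aqp5, Pdpn, Hopx, Spock2, Krt7, Agrn, Limch1, Rtkn2 and Akap5. All 10 were measured, each by 1 probe set, among 19937 genes with an unambiguous symbol on the array. The RNA was taken from the whole lungs of mice 21 days after birth that had received no treatment. The labels give 2 groups of 4 mice each, lungs with stabilized beta-catenin and lungs with beta-catenin knocked out, and record every mouse as male. How and in which cells either allele was induced, and which exons it alters, is not given in the labels. With no wild-type lungs analysed here, a difference does not tell which of the groups stands apart from normal.

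Alveolar type 1 cells are the thin, flat epithelial cells across which gas is exchanged, and they cover most of the alveolar surface. They arise in development from alveolar progenitors and in the adult from alveolar type 2 cells, the cuboidal cells that make surfactant. Beta-catenin, encoded by Ctnnb1, carries canonical Wnt signals to TCF/LEF factors on DNA and also links cadherins to the cytoskeleton, and in the mouse lung Wnt signals are known to help keep type 2 cells from turning into type 1 cells. The values below are log2 expression values, so equal differences stand for equal ratios. They allow a gene to be compared between lungs but not with another gene on the array. In whole-lung RNA a change in the number of type 1 cells and a change in RNA per cell cannot be told apart.

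Across the 10 genes, 4 were higher in stabilized lungs, 0 were lower and 6 did not pass the test. The 4 were Spock2, Krt7, Agrn and Limch1, with increases of 1.17-fold to 1.26-fold. Ager, Aqp5, Pdpn and Hopx, the genes most often used to recognise the cell, were not among them. A gene was called at an adjusted p under 0.05 in limma, a linear model fitted to all genes with Benjamini-Hochberg adjustment, and 4.65% of all genes were called higher and 4.96% lower. Of the 1721 genes whose mean log2 level lay within the range of the 10, from 8.96 to 12.00, 11.1% were called higher. The median difference was 0.17 over the 10 genes, 0.07 over those 1721 genes and -0.01 over all genes. The members were chosen with results of these data known, so their count is a description.

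The stretches before the start sites of 3 genes are shown, those of Spock2 and Krt7 because their differences were the largest of the 10, and 1 of Limch1 because it holds the other match described here. Each is 250 bases before a start site of the RefSeq annotation of GRCm38.p6, 5′ to 3′. The capitals mark CTTTGA or its reverse complement TCAAAG, the core letters bound by TCF/LEF factors.
Spock2, chr10:60106007-60106256, plus strand: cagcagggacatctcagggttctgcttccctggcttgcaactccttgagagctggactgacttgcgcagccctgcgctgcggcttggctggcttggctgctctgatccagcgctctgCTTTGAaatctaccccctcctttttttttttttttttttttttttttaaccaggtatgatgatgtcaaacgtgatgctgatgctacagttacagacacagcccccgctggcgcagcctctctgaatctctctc
Krt7, chr15:101412153-101412402, plus strand: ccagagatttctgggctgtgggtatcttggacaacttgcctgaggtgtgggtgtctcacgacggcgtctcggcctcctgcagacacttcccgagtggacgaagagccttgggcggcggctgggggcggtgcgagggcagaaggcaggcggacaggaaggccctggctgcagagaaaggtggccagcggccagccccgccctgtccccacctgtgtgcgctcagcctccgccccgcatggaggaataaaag
Limch1, chr5:66968178-66968427, plus strand: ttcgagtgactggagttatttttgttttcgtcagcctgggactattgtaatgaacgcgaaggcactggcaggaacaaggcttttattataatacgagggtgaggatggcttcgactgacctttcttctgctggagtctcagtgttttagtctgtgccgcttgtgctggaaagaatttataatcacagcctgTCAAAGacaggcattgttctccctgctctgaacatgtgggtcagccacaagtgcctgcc
The match lies 133 bases before the start of Spock2 and 59 bases before this start of Limch1. Promoters from 250 bases before to 50 bases after a start were found for 9 of the 10 genes, 13 start sites in all. CTTTGA on either strand was in 2 of these 13 promoters (15.4%), against 16.0% of 32851 mouse promoters of the same length. The 6 letters GGAATG, the core bound by the TEAD partners of Yap1 and Wwtr1, were on either strand of 0 of the 13, against 14.7% of all promoters, and neither motif contains the other. A match of 6 letters is a description of sequence and not a binding site.

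Correlations between arrays were high within and between the groups, and their ranges met. Array medians lay between 5.97 and 6.03, and correlations between arrays over all genes were 0.993 to 0.996 within a group and 0.987 to 0.993 between groups. Ctnnb1 itself was at a mean of 11.07 ± 0.08 in stabilized lungs and 10.98 ± 0.04 in knockout lungs (n = 4 each, SD; adjusted p = 0.42 in limma), which checks no label while the altered exons are unknown. Xist, the RNA of the inactive X chromosome of females, was high in 2 arrays of each group, stabilized replicates 1 and 4 and knockout replicates 1 and 3, against the recorded sex. Differences within the high-Xist arrays and within the low-Xist arrays are therefore given for the members that were called, and for Ager and Aqp5. The called genes named below outside the members kept their sign in both sets of arrays, but not always their size. Col4a4 differed by 0.38 within the high-Xist and 0.13 within the low-Xist arrays, and S100a8 by 0.41 and 0.80.

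Of the proteoglycans Spock2 and Agrn, both higher in stabilized lungs, Spock2 had the largest difference of the 10 genes. Spock2 encodes testican-2, a proteoglycan of the extracellular matrix. Spock2 had log2 values of 10.28, 10.10, 10.28 and 10.23 in stabilized replicates 1 to 4, against 9.88, 9.87, 9.87 and 9.94 in knockout replicates 1 to 4. All stabilized lungs lay above all knockout lungs, and the gap between the nearest lungs, 0.16, was about as wide as the spread within the stabilized group, 0.17. The difference was 0.33 ± 0.06 (SE, n = 4 each), or 1.26-fold, with a 95% interval of 0.19 to 0.47 and an adjusted p of 0.0054 in limma. It was 0.38 within the high-Xist arrays and 0.28 within the low-Xist arrays. Spock2 was the only member called in every fit of at least 7 arrays, with adjusted p of 0.0034 to 0.024 over the 8 leave-one-out fits, each of which omits a different array.

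Agrn encodes agrin, a heparan sulfate proteoglycan of basement membranes. Agrn had log2 values of 9.89, 9.72, 9.94 and 9.84 in stabilized replicates 1 to 4, against 9.48, 9.66, 9.62 and 9.66 in knockout replicates 1 to 4. The groups did not overlap, but stabilized replicate 2 stood only 0.07 above the nearest knockout lungs. The difference was 0.25 ± 0.07 (SE, n = 4 each; adjusted p = 0.047 in limma), 0.32 within the high-Xist and 0.17 within the low-Xist arrays. It failed the test in 7 of the 8 leave-one-out fits, with a highest adjusted p of 0.13, and passed without stabilized replicate 2.

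Among genes of the cytoskeleton, Krt7 and Limch1 rose and Rtkn2 did not pass the test. Krt7 encodes a type II keratin of simple epithelia, found in mesothelium as well. Krt7 had log2 values of 9.84, 9.68, 9.82 and 9.76 in stabilized replicates 1 to 4, against 9.44, 9.54, 9.47 and 9.51 in knockout replicates 1 to 4. The groups were separated by 0.13, and stabilized replicate 2 was again the lowest of its group. The difference was 0.28 ± 0.06 (SE, n = 4 each; adjusted p = 0.013 in limma), or 1.22-fold, with 0.34 within the high-Xist and 0.22 within the low-Xist arrays. It failed the test once stabilized replicate 1 was omitted (adjusted p = 0.052).

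Limch1 encodes a LIM and calponin homology domain protein that acts on non-muscle myosin II and stress fibres. Limch1 had log2 values of 10.28, 10.36, 10.20 and 10.20 in stabilized replicates 1 to 4, against 10.01, 9.98, 10.05 and 10.11 in knockout replicates 1 to 4. Here stabilized replicate 2, the lowest of its group for Spock2, Krt7 and Agrn, was the highest. The difference was 0.22 ± 0.06 (SE, n = 4 each; adjusted p = 0.049 in limma), 0.21 within the high-Xist and 0.24 within the low-Xist arrays. It failed the test in all 8 leave-one-out fits, with adjusted p of 0.054 to 0.13.

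Rtkn2 encodes rhotekin 2, a protein of the rhotekin family. Rtkn2 had log2 values of 9.64, 9.68, 9.65 and 9.61 in stabilized replicates 1 to 4, against 9.62, 9.57, 9.60 and 9.75 in knockout replicates 1 to 4. Knockout replicate 4 was the highest of all lungs, and knockout replicates 2 and 3 lay below all stabilized lungs. The difference was 0.01 ± 0.06 (SE, n = 4 each), with a 95% interval of -0.12 to 0.15.

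Akap5, a scaffold that tethers protein kinase A and calcineurin at the membrane, was intermediate. Akap5 had log2 values of 11.25, 11.32, 11.00 and 11.13 in stabilized replicates 1 to 4, against 10.96, 11.00, 10.92 and 11.11 in knockout replicates 1 to 4. Of the stabilized lungs, 3 lay above all knockout lungs, and replicate 3 lay among them. The difference of 0.18 ± 0.08 (SE, n = 4 each) did not pass (adjusted p = 0.18 in limma).

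The surface proteins that define the cell in most studies gave small differences. Ager encodes RAGE, a receptor of the immunoglobulin superfamily that sits on the basolateral side of type 1 cells. Ager had log2 values of 12.10, 12.05, 12.13 and 12.07 in stabilized replicates 1 to 4, against 11.91, 11.90, 11.95 and 11.92 in knockout replicates 1 to 4. The groups did not overlap and the spread was the smallest among the 10 genes, with a pooled SD of 0.03. The difference was 0.17 ± 0.06 (SE, n = 4 each), or 1.13-fold. It did not pass the test (adjusted p = 0.082 in limma), and it did pass under 4 of the 8 other settings, among them median centring of the arrays (adjusted p = 0.037). Within both Xist patterns the difference was close to the whole, 0.16 in high-Xist and 0.18 in low-Xist arrays.

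Aqp5, the water channel of the type 1 cell's apical membrane, varied most among the 10 genes, with a pooled SD of 0.16. Aqp5 had log2 values of 9.59, 9.35, 9.73 and 9.77 in stabilized replicates 1 to 4, against 9.46, 9.71, 9.44 and 9.55 in knockout replicates 1 to 4. The lowest and the highest lung were both stabilized, so the groups overlapped, although 2 stabilized lungs lay above all knockout lungs. The difference was 0.07 ± 0.10 (SE, n = 4 each), with a 95% interval of -0.14 to 0.28. It was 0.23 within the high-Xist and -0.09 within the low-Xist arrays.

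Pdpn encodes podoplanin, a mucin-like membrane protein also made by lymphatic endothelium and mesothelium. Pdpn had log2 values of 10.15, 10.06, 10.26 and 10.01 in stabilized replicates 1 to 4, against 9.96, 10.07, 10.17 and 10.13 in knockout replicates 1 to 4. The lungs of both groups were interleaved. The difference was 0.03 ± 0.07 (SE, n = 4 each), with a 95% interval of -0.13 to 0.20.

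Hopx, an atypical homeodomain protein that does not bind DNA itself, was the only member with a lower mean in stabilized lungs. Hopx had log2 values of 8.93, 8.87, 8.99 and 8.94 in stabilized replicates 1 to 4, against 8.92, 8.95, 8.97 and 9.07 in knockout replicates 1 to 4. The groups overlapped, and the difference of -0.04 ± 0.06 (SE, n = 4 each) had a 95% interval of -0.18 to 0.09. Hopx is also expressed in heart muscle. Of 6 heart muscle marker genes, 2 were called lower and 0 higher in limma, against 4.96% and 4.65% of all genes. Their median difference was -0.40, and the part of heart muscle in the value of Hopx was not tested.

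**Figure D1:**
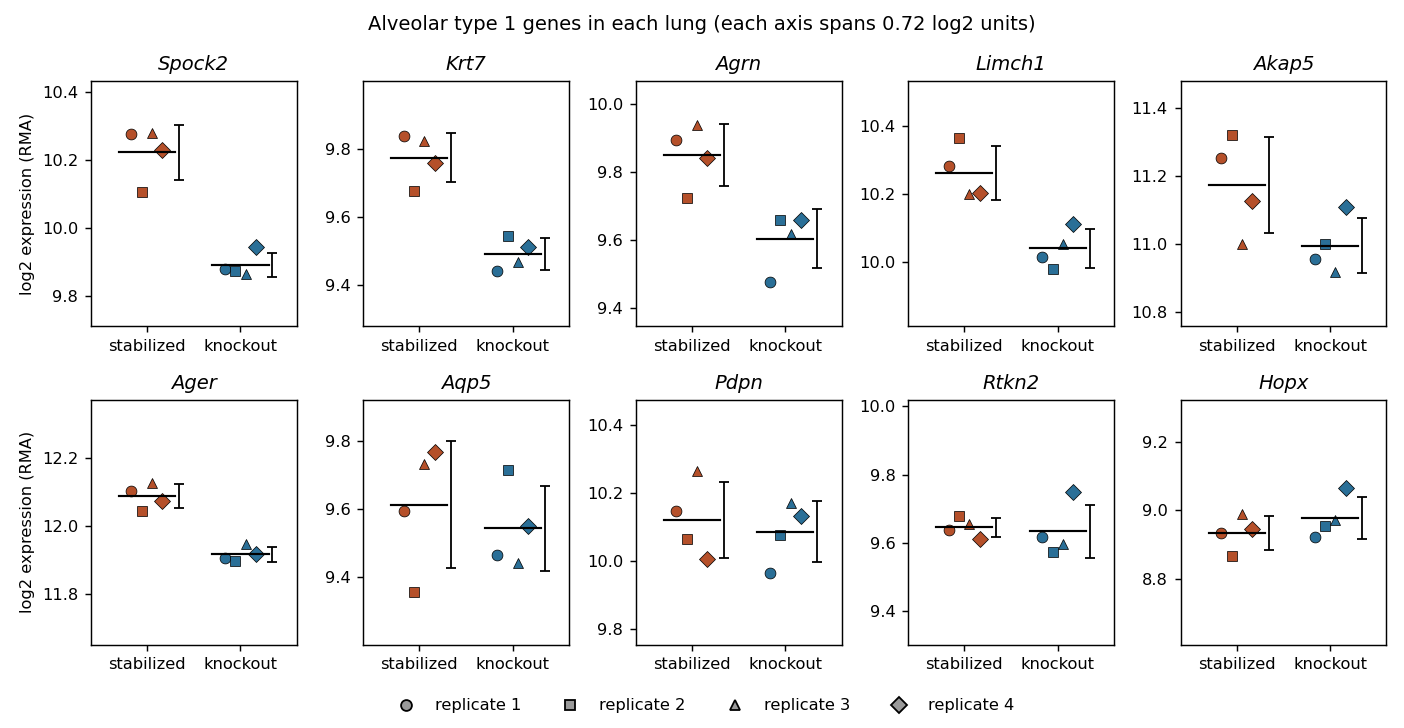
Log2 expression of the 10 alveolar type 1 genes in each lung, stabilized at the left and knockout at the right of each panel, with a symbol for each replicate, a line at the group mean and a bar of 1 SD (n = 4). The groups separate in Spock2, Krt7, Agrn, Limch1 and Ager and overlap in the other 5 genes.

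Separation of the groups was thus seen in 5 of the 10 genes, always with stabilized lungs above, where 9.06% of all genes had all stabilized arrays above all knockout arrays and 7.82% the reverse. The differences of the 10 genes ran from -0.04 to 0.33, and 9 of them were above 0, as were 69.1% of the 1721 genes in their level range and 47.8% of all genes. Among 10 genes 6 had an unadjusted p under 0.05 in limma, all of them higher in stabilized lungs. Of all 19937 genes, 2521 were higher and 2402 lower at this unadjusted threshold.

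**Figure D2:**
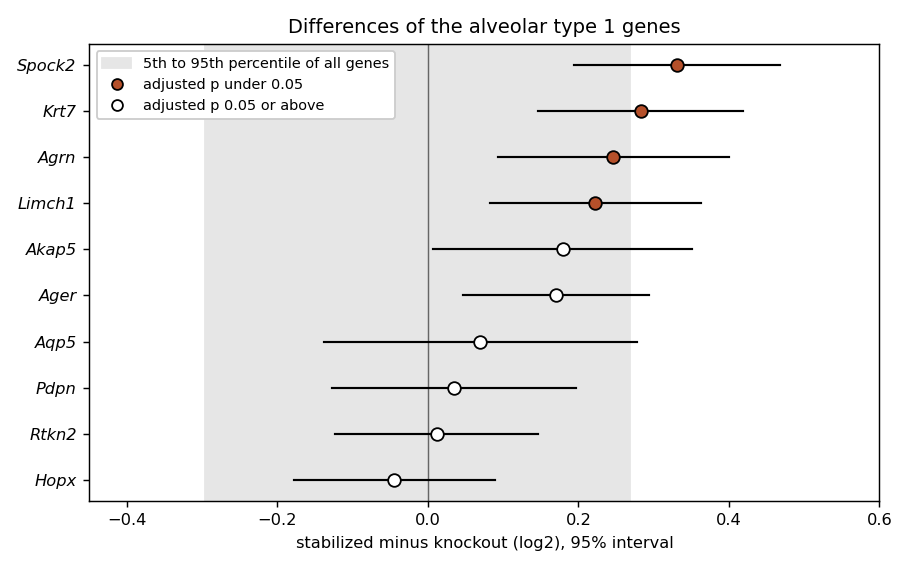
Difference between stabilized and knockout lungs on the log2 scale for each alveolar type 1 gene, with its 95% interval. Filled points passed the adjusted threshold, and the grey band spans the 5th to the 95th percentile of all genes, -0.30 to 0.27, beyond which only Spock2 and Krt7 lay.

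The lungs within a group did not order the same way for all members. Averaged over the 10 genes, stabilized replicates 1 to 4 lay at a log2 value of 10.195, 10.120, 10.200 and 10.156 and knockout replicates 1 to 4 at 9.964, 10.027, 10.005 and 10.075. The group averages did not overlap, and stabilized replicate 2 and knockout replicate 4 came closest to each other. Stabilized replicate 2 was the lowest of its group in 6 of the 10 genes and the highest in 3. Knockout replicate 4 was the highest of its group in 6 genes and the lowest in 0. The pooled SD within groups had a median of 0.07 over the 10 genes, 0.09 over the 1721 genes in their level range and 0.11 over all genes.

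**Figure D3:**
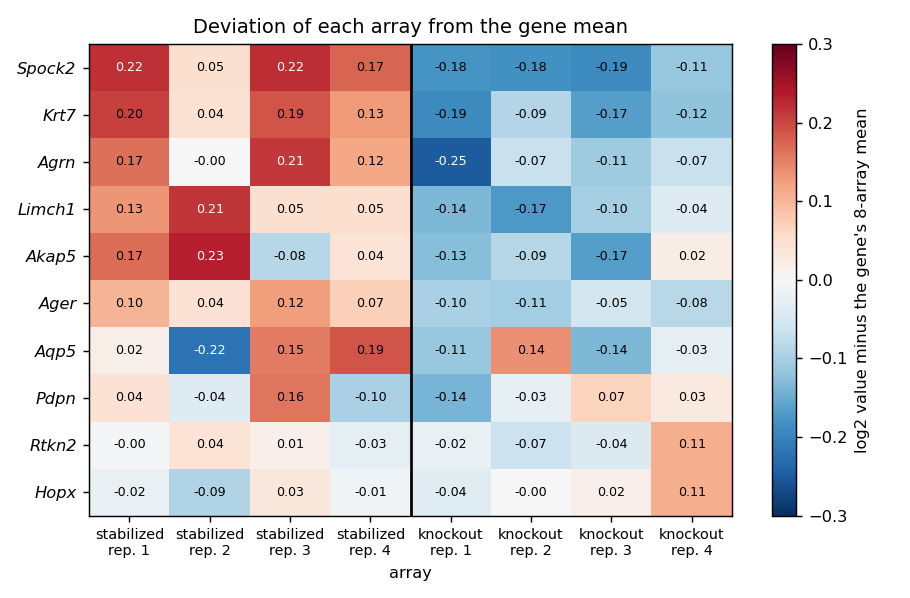
Deviation of each array from the mean of the gene over all 8 arrays, in log2 units, for the 10 genes (rows, ordered by their difference) and the 8 arrays (columns, stabilized at the left). Spock2, Krt7, Limch1 and Ager are above their mean in all stabilized arrays and below it in all knockout arrays, and Aqp5, Pdpn, Rtkn2 and Hopx are mixed.

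Few other genes known in type 1 cells passed the test. Of 18 measured, 2 were higher in stabilized lungs, 1 was lower and 15 did not pass, with a median difference of 0.09. These are 11.1% higher and 5.6% lower, against 4.65% and 4.96% of all genes. Of the 1721 genes in the level range of the members, 11.1% were called higher as well. All stabilized arrays lay above all knockout arrays in 5 of the 18 and below in 1, against 9.06% and 7.82% of all genes. The difference was above 0 in 13 of the 18, and in 69.1% of the 1721 genes. Ndnf, a secreted glycoprotein, rose by 0.49 ± 0.09 (SE, n = 4 each; adjusted p = 0.0032 in limma), a 1.4-fold difference larger than that of any of the 10 genes. Its log2 values were 10.55, 10.85, 10.65 and 10.64 in stabilized replicates 1 to 4, against 10.08, 10.29, 10.05 and 10.32 in knockout replicates 1 to 4. Col4a4, a collagen IV chain of the mature alveolar basement membrane, rose by 0.25 ± 0.07 (SE), and failed the test in 6 of the 8 leave-one-out fits (adjusted p up to 0.14 in limma). Its partner chain Col4a3 differed by -0.04 ± 0.07 (SE). Sec14l3, a member of a lipid-binding family, fell by 0.35 ± 0.07 (SE, adjusted p = 0.0074 in limma). Airway secretory and ciliated cell genes fell too, with median differences of -1.70 and -0.89, and the part of the airway in the value of Sec14l3 was not tested.

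Emp2, Clic5 and Vegfa, abundant products of type 1 cells, did not pass. The groups did not overlap in Clic5 and Vegfa, with stabilized lungs above, and overlapped in Emp2. Emp2, a tetraspan membrane protein, differed by 0.14 ± 0.07 and Clic5, an intracellular chloride channel protein, by 0.09 ± 0.06 (SE, n = 4 each). Vegfa, the growth factor through which type 1 cells signal to capillaries, differed by 0.10 ± 0.06 (SE). Of 8 blood vessel endothelial genes, 0 were called in limma, against 9.62% of all genes in either direction. The 8 had a median difference of 0.08, with 1 at an unadjusted p under 0.05. Igfbp2, a marker of fully mature type 1 cells in the mouse, was at 8.79 ± 0.11 in stabilized lungs and 8.74 ± 0.15 in knockout lungs (n = 4 each, SD), well within its spread.

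Regulators of the type 1 fate did not pass the test. Of 11 genes, which comprise lung transcription factors, the Hippo effectors and their target genes, 0 were called in limma. With 9.62% of all genes called in either direction, a list of 11 would hold few calls. Among the 11, 2 had an unadjusted p under 0.05, and the differences ran from 0.01 to 0.38 with a median of 0.10. Without stabilized replicate 3, 1 was called, Ankrd1, named after its values were seen. Nkx2-1, the transcription factor required for both alveolar epithelial fates, differed by 0.10 ± 0.06 (SE, n = 4 each). Yap1 and Wwtr1, the coactivators of the Hippo pathway, differed by 0.16 ± 0.07 and 0.11 ± 0.06 (SE; adjusted p = 0.16 and 0.32 in limma).

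Of 11 measured genes of the basement membrane, where agrin is also found, 6 were higher in stabilized lungs and 0 lower. The remaining 5 did not pass, and the median difference over the list was 0.24. The higher genes are 54.5% of the list, where 4.65% of all genes were called higher and 4.96% lower. The laminin chains Lama3, Lama5 and Lamb3, which assemble into the laminins under epithelia, rose by 0.28 ± 0.07, 0.35 ± 0.07 and 0.31 ± 0.07 (SE, n = 4 each). Col18a1, a heparan sulfate proteoglycan like agrin and the source of endostatin, rose by 0.41 ± 0.07 (SE; adjusted p = 0.0020 in limma). Its log2 values were 7.72, 7.53, 7.61 and 7.67 in stabilized replicates 1 to 4, against 7.13, 7.24, 7.30 and 7.21 in knockout replicates 1 to 4. Nid2, a linker of laminin and collagen networks, and Col4a2, a chain of the general collagen IV network, rose by 0.28 ± 0.07 and 0.24 ± 0.07 (SE). Col4a2 failed the test in 7 of the 8 leave-one-out fits (adjusted p up to 0.12 in limma), Nid2 in 4 (up to 0.078) and Lama3 in 3 (up to 0.067). The count was 4 after repeated quantile normalization and without knockout replicate 2, 3 or 4, and it was 3 without stabilized replicate 1 and 3 without knockout replicate 1, with Lama5, Lamb3 and Col18a1 called both times.

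Binding partners and relatives of the members went both ways. Of 26 measured, 4 were higher, 2 were lower and 20 did not pass, with a median difference of 0.07. These are 15.4% higher and 7.7% lower, against 4.65% and 4.96% of all genes. S100a8 and S100a9, ligands of RAGE that neutrophils and monocytes make, rose by 0.61 ± 0.10 and 0.72 ± 0.09 (SE, n = 4 each). Among relatives of Aqp5, Aqp4 fell by 0.45 ± 0.07 and Aqp3 by 0.39 ± 0.10 (SE), water channels of airway epithelium and basal cells, and Aqp3 failed the test in 4 of the 8 leave-one-out fits (adjusted p up to 0.097 in limma). Aqp4, Aqp3 and S100a8 were dim, with log2 means below 6.42, the median of the gene means. The means were 5.21, 5.51 and 6.22 in stabilized lungs and 5.66, 5.90 and 5.62 in knockout lungs. Prkar2a, a regulatory subunit through which protein kinase A binds its anchoring proteins, rose by 0.54 ± 0.06 (SE; adjusted p = 0.00023 in limma). Its log2 values were 8.04, 8.04, 8.01 and 8.03 in stabilized replicates 1 to 4, against 7.50, 7.50, 7.36 and 7.59 in knockout replicates 1 to 4, a wide gap next to a spread of 0.01 (SD) in stabilized lungs. Prkar2b, another such subunit of the list, went the other way without passing, by -0.19 ± 0.08 (SE; adjusted p = 0.18 in limma). It was named after its values were seen. Rtkn, the relative of Rtkn2, rose by 0.22 ± 0.06 (SE), and failed the test in 7 of the 8 leave-one-out fits (adjusted p up to 0.11 in limma).

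Genes of other cells moved beside the type 1 genes. Of 14 type 2 cell genes, 10 were higher and 0 lower in stabilized lungs, with a median difference of 0.27, while Sftpc and Sftpb, encoding surfactant proteins, differed by 0.03 ± 0.08 and 0.09 ± 0.08 (SE, n = 4 each). The count was 3, 5, 7 and 11 without stabilized replicates 1 to 4, and 6, 5, 4 and 4 without knockout replicates 1 to 4. It was 6 after repeated quantile normalization and 7 to 12 under the other settings that used all arrays. Their mean log2 level was 11.09 to 11.26 in stabilized and 10.85 to 10.96 in knockout lungs. Of 7 genes of the transitional state between type 2 and type 1 cells, 1 was called, the integrin subunit Itgb6, which rose by 0.50 ± 0.09 (SE; adjusted p = 0.0049 in limma).

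Mesothelial genes are relevant to Krt7 and Pdpn, which mesothelium also makes. Of 6 mesothelial genes, 4 (66.7%) were higher and 0 lower in stabilized lungs, where 4.65% and 4.96% of all genes were. The mesothelial genes had a median difference of 0.34, and 2 of them were higher without knockout replicate 3. Their mean log2 level was 8.31 to 8.41 in stabilized and 7.88 to 8.02 in knockout lungs, and their part in the difference of Krt7 was not tested. Of 5 lymphatic endothelial genes 1 was higher and 1 lower, and the lower one failed the test in 6 of the 8 leave-one-out fits. Their mean log2 levels overlapped, at 6.87 to 7.07 in stabilized and 6.92 to 7.02 in knockout lungs. Of 8 pan-epithelial genes 1 was higher, and all 7 airway secretory cell genes and 6 of 7 ciliated cell genes were lower, with medians of 0.07, -1.70 and -0.89. All 7 measured B and T cell genes were lower in stabilized lungs, with a median difference of -1.43 and mean log2 levels of 6.002 to 6.294 in stabilized and 7.184 to 7.865 in knockout lungs, and the part of these cells in the values of the type 1 genes was not tested. The type 1 genes that airway epithelium also expresses, Aqp5 and Krt7 among them, were measured in the same RNA, and the part of the airway in their values was not tested.

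**Figure D4:**
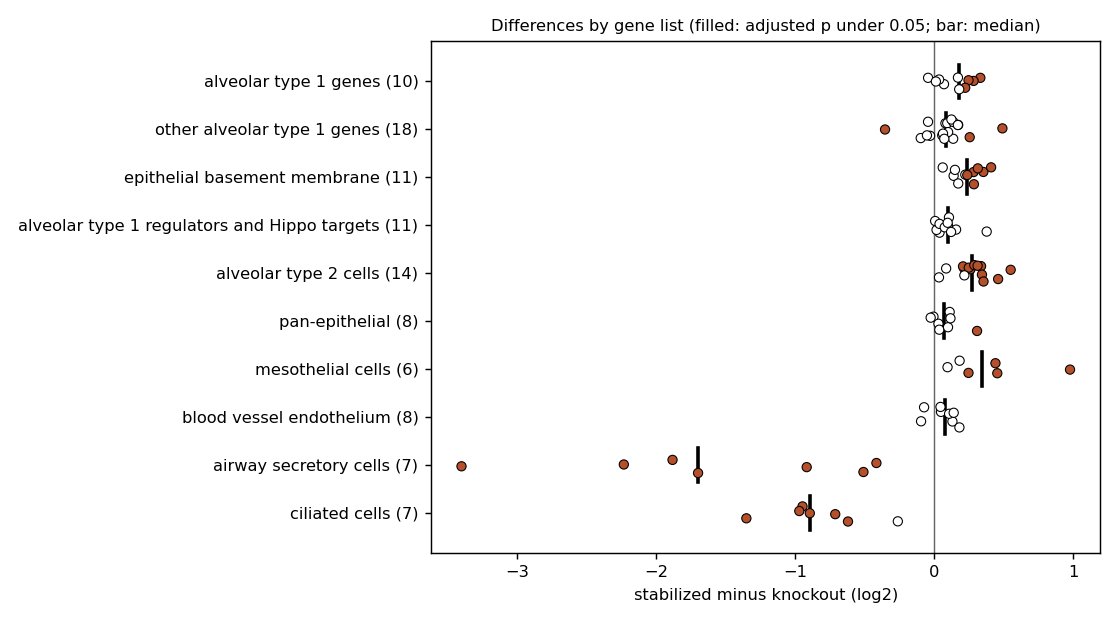
Difference between stabilized and knockout lungs on the log2 scale for each gene (points) of 10 gene lists (rows, with the number measured), with a bar at the median of the list and filled points past the adjusted threshold. The alveolar type 1 genes lie between -0.04 and 0.33, the airway secretory cell genes between -3.40 and -0.42.

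The calls of the members depended on single arrays and on scaling. In the leave-one-out fits 1 of the 10 genes, Spock2, was called higher without stabilized replicate 1, 3 were without stabilized replicate 2, and 2, Spock2 and Krt7, were without any other array. After a further quantile normalization over the 19937 genes the differences of all 10 genes shifted by -0.09 to -0.05, only Spock2 was called, and Aqp5, Pdpn and Rtkn2 turned negative like Hopx. The 1721 genes in the level range of the 10 moved by a median of -0.07 under this setting, after a median difference of 0.07 without it.

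**Figure D5:**
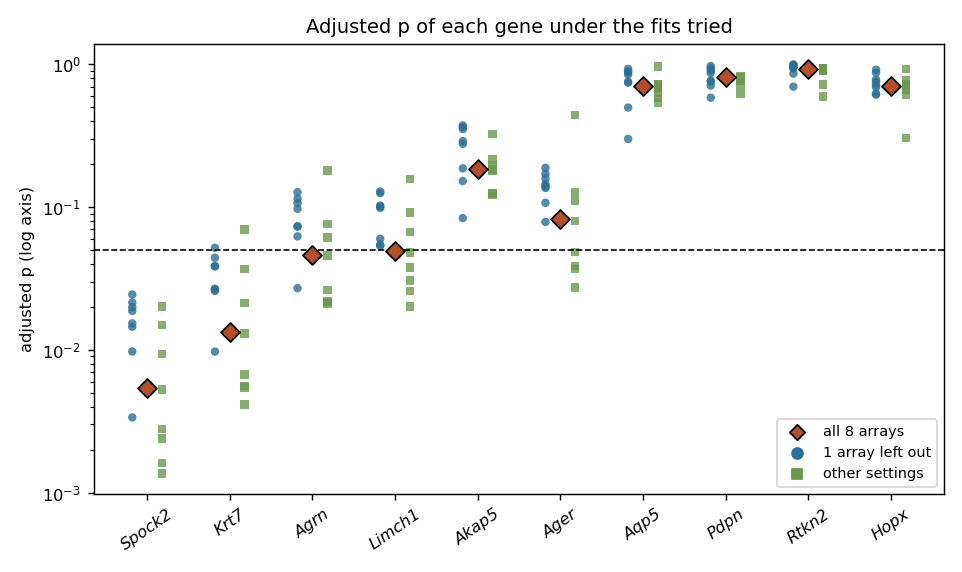
Adjusted p of each alveolar type 1 gene on a log axis with all 8 arrays (diamonds), with 1 array left out (circles) and under 8 other settings (squares), and a dashed line at 0.05. Spock2 stays below the line in all of them, Krt7 crosses it in 2 of them, and Agrn, Limch1 and Ager straddle it.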

How the data were processed

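RNA of 8 whole lungs was measured on Affymetrix whole-transcript arrays. The authors deposited a log2 value for every probe set on every array, made with RMA and the affy package per the submitters' processing notes, with no versions given. Quantile normalization within RMA hides changes in total RNA, and residual background compresses low differences. Arrays have no read depth, and their number, 4 per group, limits the precision.

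Of 34760 probe sets, 21640 had 1 gene symbol in the platform annotation, 1321 had several and 11799 had no annotation row. Where a gene had several probe sets, the brightest on average was used. Stabilized minus knockout was fitted over all genes with limma 3.58.1 in R 4.3.3 (lmFit and eBayes, no covariate or filter), with Benjamini-Hochberg adjustment and a threshold of 0.05. Errors of differences are moderated standard errors. The code was tested on simulated data. The labels number biological replicates, 1 mouse each.

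The members and gene lists were chosen with earlier results of these data known. The named genes were the 10 members, 11 others whatever their values (Emp2, Clic5, Vegfa, Col4a3, Igfbp2, Sftpc, Sftpb, Nkx2-1, Yap1, Wwtr1, Ctnnb1) and every called gene of the lists of other type 1 genes, partners, regulators, basement membrane and transitional state. Xist was used to read the sex pattern of the arrays. Alternatives were the replicate number as a block, median centring, repeated quantile normalization, mean of probe sets, a filter on dim genes, limma-trend, array weights, Xist as a covariate or as a split, and leaving out each array. Some listed genes, Gramd2a, Prkaca, Areg and Cdkn1a among them, were not analysed here.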

Additional observations from a re-analysis of the deposited data

Results flagged for a closer look

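Among the 37 named genes, 74 groups of 4 lungs were examined for a lung far from the other 3, and 3 were found, where chance alone gives about 1 in 20 groups. Stabilized replicate 2 had the lowest Lama5 of its group, 9.17 against 9.35 to 9.36 in the other 3 lungs (gap over range 0.949). The same lung had the lowest Lamb3, 8.50 against 8.63 to 8.65 (gap over range 0.872). Knockout replicate 4 had the highest Col4a3 of its group, 8.71 against 8.51 to 8.54 (gap over range 0.853). None of the 10 alveolar type 1 genes was among the 3.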

How the results depend on the processing

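The number of members called higher, 4 with all arrays, was 2 with the replicate number as a block, 2 with Xist as a covariate and 1 after repeated quantile normalization. It was 0 within the 4 high-Xist and 0 within the 4 low-Xist arrays, where 2 lungs stand against 2 and all genes gave 670 and 354 calls. With each array left out it ranged from 1 to 3. Median centring, the filter on dim genes, limma-trend and array weights each gave 5, with Ager added, and the mean of probe sets gave 4. No member was called lower in any of these fits. The split and left-out fits also hold fewer arrays, and the cause of the changes in count was not tested for any setting.

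Small differences changed sign. Under repeated quantile normalization Aqp5 was -0.0109, Pdpn -0.0389, Rtkn2 -0.0623, Igfbp2 -0.00519 and Sftpb -0.0116, and within the low-Xist arrays Aqp5 was -0.0890 and Igfbp2 -0.00323. With 1 array left out Pdpn ranged from -0.0132 to 0.0730, Rtkn2 from -0.00851 to 0.0496, Col4a3 from -0.0754 to 0.000123 and Sftpc from -0.0254 to 0.0716. Same-numbered lungs of the groups had deviations correlated at -0.01 to 0.08 over genes, so the number was not taken as a pairing. With the replicate block, Spock2 (adjusted p = 0.015 in limma) and Krt7 (adjusted p = 0.037) remained called.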
